A study of Mus musculus with 18 samples.

Results

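The 9 named transcription factors of effector regulatory T cells were followed across 6 organs of the mouse: Maf, Prdm1, Irf4, Batf, Rora, Id2, Tbx21, Bcl6 and Ahr. The members were named by gene symbol, and the symbols were matched to the Ensembl gene IDs of the deposited tables. These 9 genes stood among 55487 gene IDs, of which 16694 were expressed highly enough to be tested (at least 1 TPM on average in some organ), and all 9 members were among the 16694. TPM is a length-normalised transcript abundance that gives each gene's share of the library's RNA.

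Regulatory T (Treg) cells are CD4+ T cells that express Foxp3 and restrain immune responses. Libraries of polyadenylated RNA were made from Treg cells sorted fresh from the spleen, lymph node, bone marrow, blood, liver and lung, with 3 libraries per organ and 18 in all. Every group was wild-type and without treatment, so the organ is the only labelled difference, and no group carried an engineered allele. The age, sex and number of the mice, the pooling of animals, the way each organ was dissociated and the sorting gates are not given in the sources used here. Nothing states that the 3 libraries of an organ came from separate animals, so p-values measure only the spread between these libraries.

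Treg cells that have met antigen leave the resting state and become effector cells, some of which settle in non-lymphoid organs. BATF and IRF4 bind composite DNA elements together and open the chromatin of effector genes, while Blimp-1 (the product of Prdm1) and c-Maf act on the effector programme, including the cytokine gene Il10. Blimp-1 and BCL6 repress each other, and ID2 blocks the E proteins that hold T cells in a less differentiated state. T-bet (Tbx21), RORα (Rora) and the aryl hydrocarbon receptor (Ahr) are linked to particular tissues and types of inflammation.

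The libraries differed in what else they held. Genes above 0 TPM numbered 14314 to 14408 per library in liver, 15219 to 15606 in lung, 16685 to 16756 in spleen, and 18985 to 19797 in lymph node, blood and bone marrow. TPM keeps no depth. All 8 Treg markers examined (Foxp3, Il2ra, Ctla4, Ikzf2, Ikzf4, Tnfrsf18, Cd3e and Cd4) had a mean of at least 1 TPM in every organ, and their summed level ran from 926 to 946 TPM in blood up to 3207 to 3287 TPM in lung. The sum does not rank the organs by Treg content. The median difference of the 8 markers was -0.15 for lung minus spleen (log2), against -0.08 for all genes tested. The summed level of 14 myeloid markers was 26842 to 27634 TPM in blood and 38273 to 38534 TPM in bone marrow, against 39.1 to 1775 TPM in the other 4 organs. Platelet markers (7 genes) summed to 2748 to 2868 TPM in blood and to at most 82.3 TPM elsewhere. Because TPM is a share, RNA of other cells lowers every T cell gene, and fewer Treg cells and less RNA of a gene per cell cannot be told apart in such samples. A second scale was therefore used beside TPM, in which each library was divided by its factor for the geometric mean of 20 general T cell genes. The factors were 1.35 to 1.38 in lymph node, 1.21 to 1.23 in liver, 1.12 to 1.14 in spleen, 0.947 to 0.994 in lung, 0.879 to 0.905 in bone marrow and 0.608 to 0.618 in blood. On the T cell scale the median difference of all 16694 genes moved by up to 0.91 (log2, blood minus lymph node), and by 0.70 for blood minus spleen, 0.83 for blood minus liver, 0.54 for blood minus lung, 0.42 for blood minus bone marrow and 0.49 for bone marrow minus lymph node.

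All 9 factors differed among the 6 organs, in a test for which 68% of all genes tested were called (limma F test on log2(TPM + 1), Benjamini-Hochberg adjusted p under 0.05). Such a background means that differing somewhere among the organs did not set these genes apart, whereas their F statistics ranked between place 66 (Maf, adjusted p = 7.3e-14) and place 3533 (Tbx21, adjusted p = 1.3e-05) of 16694. Rora held the widest range, with 4.06 log2 units between its highest and lowest organ, followed by Id2 at 2.94, Tbx21 at 2.63, Maf at 2.62 and Batf at 2.29. The ranges of Prdm1, Ahr, Bcl6 and Irf4 were 1.98, 1.88, 1.61 and 1.07. Over the 15 pairs of organs, 108 of the 135 member comparisons were called, from 10 of 15 for Prdm1 and Tbx21 to 14 of 15 for Id2, where 33.8% of such comparisons over all genes tested were called. Differences are given below as log2(TPM + 1), a scale on which changes of lowly expressed genes come out smaller than they are, and comparisons that share an organ share its 3 libraries.

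**Figure D1:**
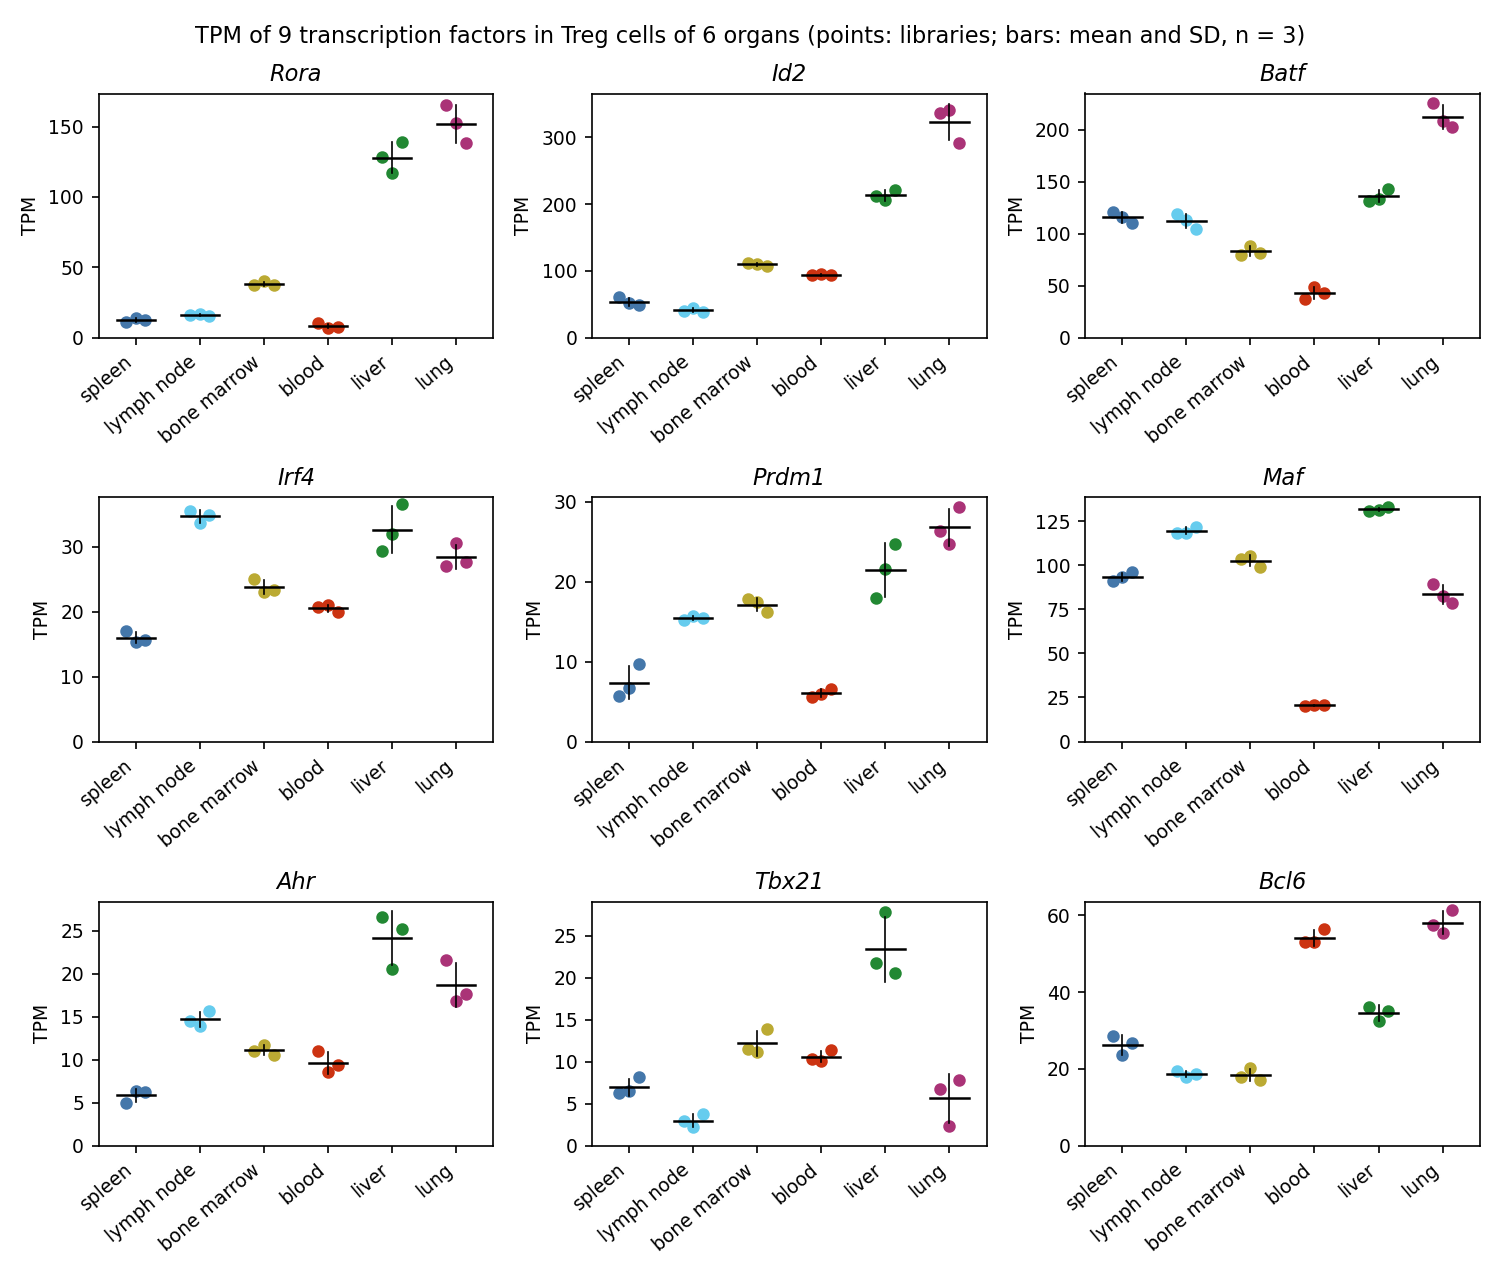
TPM of each of the 9 transcription factors (vertical axis, linear from 0) in the 3 libraries of each of 6 organs (horizontal axis). Points are libraries, the horizontal bar is the mean and the vertical bar the SD. Rora and Id2 were highest in liver and lung, Maf was lowest in blood (20.3 to 21 TPM), and Bcl6 was high in both blood and lung.

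Against the spleen, the liver and the lung held more of most members. In liver, 8 of 9 were higher than in spleen and none was lower, where 31.3% of all genes were called (17.3% higher in spleen and 14% higher in liver). The median member differed by 1.44 (log2, liver minus spleen) against -0.06 for all genes tested. In lung, 7 of 9 were higher than in spleen and Maf was lower, where 40.8% of all genes were called (22.8% higher in spleen and 18% higher in lung), with a median of 1.12 against -0.08. The members left uncalled were Batf in the liver comparison and Tbx21 in the lung comparison. Against the lymph node, 6 members were higher in liver and none lower, where 31.1% of all genes were called (21.6% higher in lymph node and 9.45% higher in liver). In lung 5 were higher than in lymph node and 2 lower, where 42.3% were called (27.4% higher in lymph node and 14.9% higher in lung). Against bone marrow, 8 were higher in liver and none lower, where 34.5% of all genes were called (25.1% higher in bone marrow and 9.36% higher in liver). In lung 6 were higher than in bone marrow and 2 lower, where 43.5% were called (30.3% higher in bone marrow and 13.2% higher in lung). On the T cell scale 8 members were higher and none lower in liver than in spleen, where 11.1% of all genes were higher and 20.9% lower in liver. Against lymph node 8 were higher and none lower in liver, where 11.7% of all genes were higher and 13.2% lower. Against bone marrow 5 were higher and none lower in liver, where 3.54% of all genes were higher and 48.5% lower. On that scale 7 members were higher and none lower in lung than in spleen, where 23.1% of all genes were higher and 16.6% lower in lung. Against lymph node 7 were also higher and none lower in lung, where 26.3% of all genes were higher and 12.3% lower, while against bone marrow 6 were higher and 2 lower, where 10.8% were higher and 36.3% lower.

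The lymphoid organs differed among themselves in a mixed way. Between spleen and lymph node 7 members were called, where 14.3% of all genes were (4.44% higher in spleen and 9.87% higher in lymph node): Id2, Tbx21 and Bcl6 were higher in spleen, and Maf, Prdm1, Irf4 and Ahr were higher in lymph node. Between spleen and bone marrow 7 were called, where 24.1% of all genes were (5.92% higher in spleen and 18.2% higher in bone marrow), with Batf and Bcl6 higher in spleen and Prdm1, Irf4, Rora, Id2 and Ahr higher in bone marrow. Between lymph node and bone marrow 6 were called, where 22.5% of all genes were (8.89% higher in lymph node and 13.7% higher in bone marrow), with Maf, Irf4 and Batf higher in lymph node and Rora, Id2 and Tbx21 higher in bone marrow. Between spleen and lymph node, the Tbx21 call (limma adjusted p = 0.026) was lost without spleen replicate 2 or 3. It was also lost without lymph node replicate 1 or 2, or with the blood libraries left out of the fit. The Id2 call (adjusted p = 0.0083) was lost in a fit of those 2 organs alone. The splits among these organs also depend on the scale, and Maf was not called between spleen and lymph node on the T cell scale. With T cell scaling 4 were higher in spleen and 3 in lymph node, where 8.25% of all genes were higher in spleen and 2.08% in lymph node. On that scale all 7 called members were higher in bone marrow than in spleen, and all 6 called were higher in bone marrow than in lymph node. The called genes as a whole leaned the same way, with 37.2% of all genes higher in bone marrow and 2.92% in spleen, and 43.6% higher in bone marrow and 1.93% in lymph node.

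**Figure D2:**
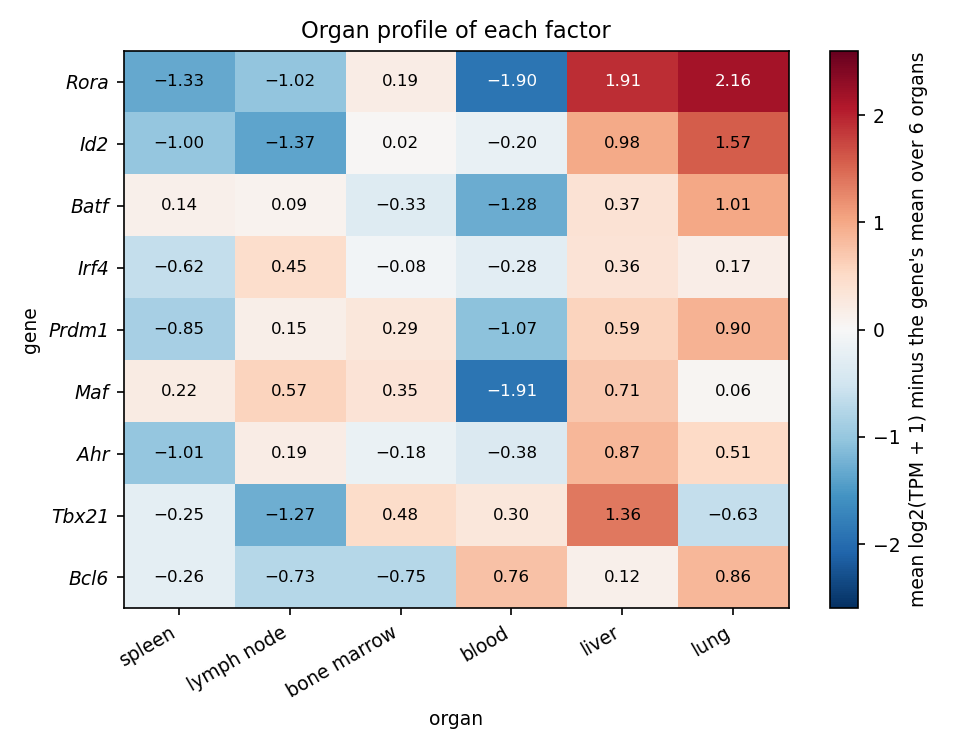
Mean log2(TPM + 1) of each factor (rows) in each organ (columns), minus the mean of that factor over the 6 organs. Red is above and blue below the factor's own mean. Rora spans from -1.90 in blood to 2.16 in lung, whereas Irf4 stays between -0.62 in spleen and 0.45 in lymph node.

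Batf encodes a small basic leucine zipper protein that pairs with JUN proteins and binds DNA beside IRF4. The gene lies on chr12:85686669-85709087 (plus strand, GRCm38, as all coordinates here). Its level was 226, 208 and 203 TPM in the lung libraries, 132, 134 and 143 in liver, 121, 116 and 110 in spleen. It was at 119, 113 and 105 in lymph node, 79.6, 88.3 and 81.3 in bone marrow, and 37, 48.4 and 43 in blood. All 3 lung libraries lay above every other library and all 3 blood libraries below. Lung stood 0.64 ± 0.09 (log2 difference ± SE; limma adjusted p = 4.1e-05) above liver and 2.29 ± 0.09 above blood (adjusted p = 9.1e-12), a 4.97-fold ratio of mean TPM. Liver over spleen (0.23 ± 0.09) did not pass the test (adjusted p = 0.057), but was called under 6 alternatives, among them a filter at 10 TPM, median-of-ratios scaling (0.25) and leaving out blood replicate 1 or 2. Spleen and lymph node did not differ on the TPM scale (0.05, adjusted p = 0.85), whereas spleen was higher by 0.32 on the T cell scale and called (adjusted p = 0.031). Spleen lay above bone marrow by 0.47 ± 0.09 (adjusted p = 0.00077), but by 0.14 on the T cell scale, where it was not called. The lymph node, 0.43 above bone marrow on the TPM scale, was at -0.19 on the T cell scale, not called. Bone marrow was 0.95 ± 0.09 above blood (adjusted p = 5.8e-07). The difference of liver and lymph node (0.28 ± 0.09, adjusted p = 0.025) lost its call without lymph node replicate 2 or 3 or liver replicate 3 (0.23 to 0.28).

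Irf4 encodes the interferon regulatory factor that antigen receptor signals induce in T cells, and lies on chr13:30749226-30766976 (plus strand). It measured 35.5, 33.6 and 34.9 TPM in lymph node, 29.4, 31.9 and 36.5 in liver, 27, 30.5 and 27.6 in lung. It was at 25.1, 23 and 23.3 in bone marrow, 20.7, 21 and 19.9 in blood, and 17, 15.4 and 15.6 in spleen. The spleen libraries were the lowest and did not overlap with any other organ, while liver overlapped with both lymph node and lung. The highest group, lymph node, lay 1.07 ± 0.10 above spleen (log2; limma adjusted p = 2.9e-06), liver 0.98 ± 0.10 (adjusted p = 1.9e-06) and lung 0.79 ± 0.10 (adjusted p = 8.9e-06). The steps from lymph node to liver (limma adjusted p = 0.53) and from liver to lung (0.15) did not pass the test. Nor did those from lung to bone marrow (0.056) and bone marrow to blood (0.14), although these libraries did not overlap. Lung over bone marrow (0.24) was called under some alternatives, among them median-of-ratios scaling (0.45) and removal of abundant RNA classes (0.37). On the T cell scale it was 0.11 and not called. Blood was 0.34 ± 0.10 above spleen (adjusted p = 0.012), and this call was lost when abundant RNA classes were removed (0.20). The place of blood turned with the scale: Irf4 was lower in blood than in lymph node, liver and lung on the TPM scale, by 0.73, 0.64 and 0.45, but higher in blood on the T cell scale. That lead of blood was 0.39 over lymph node, 0.32 over liver and 0.32 over bone marrow, all called, and 0.20 over lung, not called. On that scale 58% of all genes were higher in blood than in lymph node, 62.9% than in liver, 32.9% than in bone marrow and 52.5% than in lung. Markers of B cells and of dendritic cells (8 genes each) had their highest sums in blood, at 672 to 694 and 1893 to 2005 TPM. The part of such cells in the blood level of Irf4 was not tested. The lead of lymph node over lung (0.28 ± 0.10, adjusted p = 0.030) turned to -0.19 on the T cell scale, not called, and was lost without any 1 of the lymph node libraries or without lung replicate 1 or 3.

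Partners and relatives of these 2 factors were set beside them. Of 12 genes of the basic leucine zipper family chosen beside Batf and Maf, 9 were higher and 1 lower in lung than in spleen, 7 were higher and 1 lower in liver, and 9 were higher and none lower in blood. The medians were 0.80, 0.89 and 0.79 against -0.08, -0.06 and 0.00 for all genes tested. Of all genes tested, 18% were higher and 22.8% lower in lung than in spleen. The shares were 14% and 17.3% in liver, and 20.1% and 15.3% in blood. The same shares apply to the counts of the later lists against spleen. Jun, a partner of BATF, averaged 362 ± 21.0 TPM (SD, n = 3) in liver and 354 ± 6.47 in bone marrow against 41.8 ± 0.745 in spleen and 23.2 ± 1.41 in lymph node. It was 3.08 ± 0.07 higher in liver than in spleen (log2; limma adjusted p = 3.8e-14). Maff, which encodes a small Maf protein without an activation domain, reached 23.8 ± 4.43 TPM in lung and 13.1 ± 1.06 in liver against 1.61 to 2.59 in the other 4 organs. Batf3, which is known from dendritic cells, averaged 12.6 ± 2.53 TPM in blood and at most 2.75 TPM elsewhere. The myeloid marker sum in blood was 26842 to 27634 TPM, and its part in the blood level of Batf3 was not tested. Bach2, which encodes a repressor that competes with BATF at shared sites, averaged 32.2 ± 12.6 TPM in lung and 28.1 ± 2.66 in lymph node. It was at 20.4 ± 0.852 TPM in blood, 17.6 ± 7.30 in bone marrow, 17.5 ± 8.07 in liver and 15.3 ± 3.69 in spleen. The ratio of Batf to Bach2 within a library was 1.90 to 2.32 in blood and 3.63 to 4.42 in lymph node, and it spread from 4.90 to 12 over the liver and lung libraries. The bone marrow libraries spread from 3.13 to 6.79, so the ratio varied widely within these 3 organs.

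Among 8 other genes of the interferon regulatory factor family, 3 were higher and 2 lower in lung than in spleen. The median was -0.19 against -0.08 for all genes, but 0.01 on the T cell scale. In liver 1 was higher and 2 lower than in spleen (median -0.06 against -0.06). The shares of all genes tested were 18% higher and 22.8% lower in lung, and 14% and 17.3% in liver. Irf5 and Irf8, which are known from macrophages, dendritic cells and B cells, were highest in blood at 99.3 ± 4.86 and 87.5 ± 4.33 TPM, against 17.2 to 42.2 and 17.3 to 53.4 TPM in the other organs. Irf2 was lowest in lung, at 42.4 ± 7.22 TPM against 88.0 ± 24.9 in spleen, and fell by 1.01 ± 0.18 (log2) from spleen to lung (limma adjusted p = 0.00029).

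Prdm1 encodes Blimp-1, a zinc finger repressor known from plasma cells and effector T cells, and lies on chr10:44437177-44528501 (minus strand). The BCL6 zinc finger repressor, the master factor of follicular helper T cells and germinal centre B cells, is encoded on chr16:23965052-23988852 (minus strand). The sequences from 250 bases before to 50 bases after the RefSeq start sites of both genes (GRCm38.p6) are printed because the members' products bind such elements. Capitals mark TGANTCA, the element of AP-1 proteins that BATF dimers bind, in the Prdm1 window (chr10:44458699-44458998, minus strand), and TTCNNNGAA, the core of the element that BCL6 shares with STAT proteins, in the windows of 2 start sites of Bcl6 (chr16:23988803-23989102 and chr16:23981234-23981533, minus strand).
Prdm1: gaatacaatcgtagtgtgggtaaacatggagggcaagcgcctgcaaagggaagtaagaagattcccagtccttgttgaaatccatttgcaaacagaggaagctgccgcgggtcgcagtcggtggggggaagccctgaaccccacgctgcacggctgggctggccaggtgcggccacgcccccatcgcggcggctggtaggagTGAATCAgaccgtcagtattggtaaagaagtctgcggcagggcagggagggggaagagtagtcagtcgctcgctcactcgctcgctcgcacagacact
Bcl6 start site 1: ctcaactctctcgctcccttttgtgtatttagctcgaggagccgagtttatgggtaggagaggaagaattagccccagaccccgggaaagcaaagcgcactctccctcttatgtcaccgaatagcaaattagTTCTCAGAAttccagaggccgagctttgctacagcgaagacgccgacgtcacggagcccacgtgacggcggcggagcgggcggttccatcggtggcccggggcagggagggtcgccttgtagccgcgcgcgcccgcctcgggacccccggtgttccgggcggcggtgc
Bcl6 start site 2: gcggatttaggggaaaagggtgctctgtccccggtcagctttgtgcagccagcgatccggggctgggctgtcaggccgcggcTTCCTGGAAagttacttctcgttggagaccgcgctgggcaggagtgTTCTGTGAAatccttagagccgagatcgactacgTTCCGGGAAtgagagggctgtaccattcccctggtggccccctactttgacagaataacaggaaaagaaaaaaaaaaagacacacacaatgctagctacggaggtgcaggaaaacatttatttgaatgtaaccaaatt
The single TGANTCA of Prdm1 lay 48 bases before the start site, and 7.81% of 32851 promoter windows of this length held such a match on either strand. The first Bcl6 window held 1 TTCNNNGAA, 118 bases before its start site, and the second held 3, at 168, 122 and 88 bases before it, whereas 8.30% of windows held at least 1. No match to either motif was found in the windows of Rora, Id2, Batf, Irf4 and Tbx21. These were 2 of 9 motifs searched on both strands. GCGTG, the core of the AHR element, was found in the windows of Rora, Prdm1 and Irf4 (32.4% of all windows hold it), and CANNTG, the E-box of E proteins, in those of 6 of the 7 matched members (72.3% of all windows). No member window held the interferon response element (3.44% of all windows), TGCTGA (core of the c-Maf element, 19.5%), AGGTCA (the ROR site, 16.3%), GGTGTGA (T-box, 3.98%) or TGACGTCA (cyclic AMP response element, 1.79%). None of the capitals shares a base with a match to another of the 9 motifs, and each match is a run of letters, not a measured binding site. A RefSeq window was matched for 7 of the 9 members.

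Prdm1 measured 26.3, 24.8 and 29.4 TPM in lung, 18, 21.6 and 24.8 in liver, 17.9, 17.4 and 16.2 in bone marrow. It was at 15.2, 15.7 and 15.5 in lymph node, 5.74, 6.67 and 9.71 in spleen, and 5.59, 5.97 and 6.64 in blood. The organs fell into a low pair, spleen and blood, whose libraries overlapped, and 4 organs whose libraries all lay above them. Lung was 3.64-fold above spleen (log2 difference 1.76 ± 0.16, limma adjusted p = 3.5e-07) and liver 2.91-fold (1.44 ± 0.16, adjusted p = 6.8e-06). Lymph node and bone marrow exceeded spleen by 1.00 ± 0.16 and 1.14 ± 0.16 (adjusted p = 0.00057 and 6.6e-05). Of the neighbours in the order, only lymph node and spleen passed the test. The limma adjusted p was 0.15 for lung and liver and 0.18 for liver and bone marrow. It was 0.67 for bone marrow and lymph node and 0.34 for spleen and blood. Liver over lymph node (0.44 ± 0.16) narrowly missed the test (adjusted p = 0.054). It was called under several alternatives, among them median-of-ratios scaling (0.64) and T cell scaling (0.58). On the T cell scale the 2 low organs parted, with Prdm1 lower in spleen than in blood by 0.56 and called. The lead of bone marrow over lymph node, 0.14 on the TPM scale, was 0.72 there and called (adjusted p = 0.0019), and the lead of lymph node over blood went from 1.22 to 0.18 and lost its call. Plasma cell markers (6 genes) summed to 224 to 243 TPM in spleen, 161 to 182 in bone marrow, 156 to 163 in blood, 154 to 160 in lung, 86.6 to 124 in liver and 81.7 to 92.1 in lymph node. Of the 5 of them that were tested, 2 were higher and 2 lower in lung than in spleen, and Tnfrsf17 was listed at 0 in every library of spleen, lymph node, liver and lung. The part of plasma cells in the Prdm1 level was not tested.

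Bcl6 measured 57.5, 55.4 and 61.4 TPM in lung, 53, 53 and 56.5 in blood, 36.2, 32.3 and 35.1 in liver. It was at 28.6, 23.5 and 26.8 in spleen, 19.4, 17.8 and 18.8 in lymph node, and 18, 20.2 and 17 in bone marrow. Lung and blood overlapped at the top, lymph node and bone marrow overlapped at the bottom, and liver and spleen lay between without overlap. Lung and blood did not differ beyond their spread (log2 difference 0.10 ± 0.10, limma adjusted p = 0.45), but on the T cell scale blood was higher by 0.57 and called. Bcl6 was the member that blood held more of than liver (0.64 ± 0.10, adjusted p = 6.8e-05), and 1.61 on the T cell scale. Lung exceeded lymph node 3.12-fold (1.59 ± 0.10, adjusted p = 2.2e-09), and liver exceeded spleen by 0.38 ± 0.10 (adjusted p = 0.0070), a call that was lost with library weights or in a fit of those 2 organs alone. Lymph node and bone marrow did not differ on the TPM scale (adjusted p = 0.95), whereas bone marrow was higher by 0.57 on the T cell scale and called. B cell markers (8 genes) summed to 672 to 694 TPM in blood, 542 to 617 in spleen, 521 to 555 in bone marrow, 168 to 180 in lymph node, 124 to 174 in lung and 78.6 to 108 in liver. The part of B cells and of the myeloid cells in the Bcl6 level was not tested.

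The ratio of Prdm1 to Bcl6 within a library does not depend on a scale factor common to the library. It was 0.112 ± 0.00602 (mean ± SD, n = 3) in blood, 0.282 ± 0.0811 in spleen, 0.461 ± 0.0160 in lung, 0.624 ± 0.110 in liver, 0.832 ± 0.0496 in lymph node and 0.936 ± 0.0665 in bone marrow. The 3 blood libraries (0.105 to 0.117) lay below all 15 others, and all 18 ratios were under 1. Bone marrow (0.863 to 0.994) and lymph node (0.785 to 0.884) overlapped at the top. Lung, which was highest in both genes, took a middle place in their ratio. These values are a description, with no test.

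**Figure D3:**
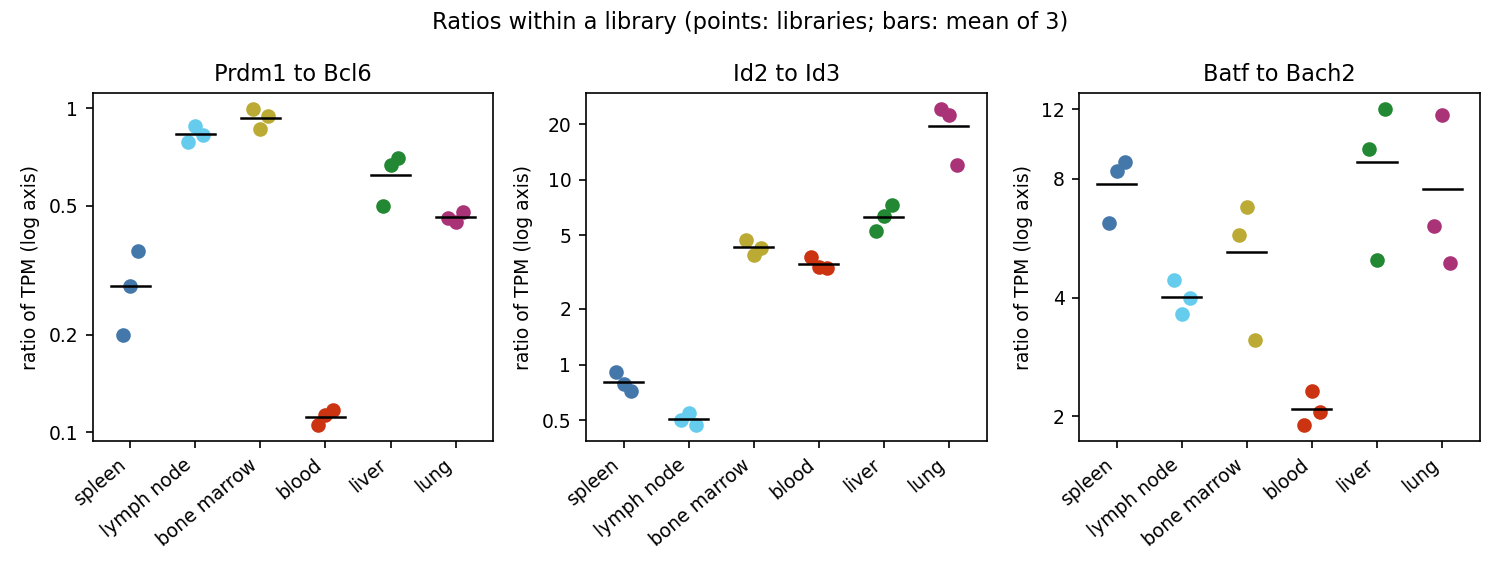
Ratio of the TPM of 2 genes within each library (vertical axes, logarithmic) by organ, for Prdm1 to Bcl6, Id2 to Id3 and Batf to Bach2. Points are libraries and bars the mean of 3. Blood is lowest for Prdm1 to Bcl6 (0.105 to 0.117) and Batf to Bach2 (1.90 to 2.32), whereas lung is highest for Id2 to Id3 (12 to 24).

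Genes known from the follicular programme of BCL6 did not follow Bcl6 into the lung. Of 14 such genes and cofactors, 1 was higher and 11 were lower in lung than in spleen, with a median of -0.87 against -0.08 for all genes tested. On the T cell scale 1 was higher and 8 were lower, where 23.1% of all genes were higher and 16.6% lower in lung. Cxcr5, the receptor that brings T cells into B cell follicles, fell from 66.4 ± 12.1 TPM in spleen and 42.8 ± 3.14 in lymph node to 14.3 ± 7.38 in liver and 11.1 ± 3.82 in lung, by 2.51 ± 0.28 (log2) from spleen to lung (limma adjusted p = 3.3e-06). Tox2, a follicular helper factor, was 26.0 ± 5.67 TPM in spleen, 11.2 ± 1.88 in lung and 2.58 ± 0.344 in blood. Bcor, which encodes a corepressor that binds BCL6, was highest in lymph node at 58.9 ± 0.707 TPM and lowest in lung at 13.3 ± 1.91. The gene of this list that was higher in lung than in spleen was Pdcd1, which encodes the inhibitory receptor PD-1, at 295 ± 17.3 against 117 ± 4.44 TPM (1.33 ± 0.07, adjusted p = 7.6e-10), and in blood it stood at 4.66 ± 0.386 TPM.

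Maf encodes c-Maf, a large basic leucine zipper protein that acts on Il10 and on gut Treg cells, and lies on chr8:115682942-115707794 (minus strand). It measured 131, 132 and 133 TPM in liver, 119, 119 and 122 in lymph node, 104, 105 and 99 in bone marrow. It was at 91.2, 93.2 and 96 in spleen, 89.5, 82.4 and 78.6 in lung, and 20.3, 20.7 and 21 in blood. Blood stood far below, and no 2 organs overlapped. The spleen held 4.53 times as much as blood (log2 difference 2.12 ± 0.06, limma adjusted p = 6.1e-13), the lung 4.04 times (1.96 ± 0.06, adjusted p = 5.8e-13) and the liver 6.38 times (2.62 ± 0.06, adjusted p = 2.2e-14). On the T cell scale these differences were 1.27, 1.32 and 1.65, all called. The leads of liver over lymph node (limma adjusted p = 0.096) and of bone marrow over spleen (0.14) did not pass the test. On the T cell scale liver was higher by 0.30 (adjusted p = 0.0031) and bone marrow by 0.47 (adjusted p = 3.2e-05), both called. Maf was the only member called lower in lung than in spleen, by 0.16 ± 0.06 (limma adjusted p = 0.042). This small difference was at -0.04 on the T cell scale and lost its call under most alternatives. Its lead in lymph node over bone marrow, 0.22 ± 0.06 (adjusted p = 0.013), turned to -0.39 on the T cell scale, called, and was lost without lymph node replicate 3 (0.21) or bone marrow replicate 3 (0.20). The liver lead over bone marrow, 0.36, was at -0.09 on that scale, not called. An antisense gene, Gm15655, overlaps exons of Maf on the other strand and was listed at 0 to 34.18 TPM in lung, 3.52 to 7.59 in lymph node and 0 to 8.68 in blood, and at 0 in spleen, bone marrow and liver. The library kit keeps strand, but whether the counting used it is not given in the sources used here, so reads of Maf and Gm15655 may not be told apart. Genes on the other strand also overlap exons of Rora, Bcl6 and Ahr, and were listed at 0, 0 and at most 0.62 TPM.

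Genes tied to the programme of Blimp-1 and c-Maf in effector Treg cells were also followed. Of 12, 9 were higher and 1 lower in lung than in spleen (median 1.22 against -0.08 for all genes), 10 were higher and 1 lower in liver (1.24 against -0.06). In blood 4 were higher and 8 lower (-1.05 against 0.00), and on the T cell scale 4 were higher and 6 lower (-0.20). On that scale 53.8% of all genes were higher and 2.88% lower in blood than in spleen. Il10, the suppressive cytokine, was 35.7 ± 5.47 TPM in lung, 27.5 ± 2.39 in liver, and 20.8 ± 2.79 in lymph node. In bone marrow Il10 was at 10.4 ± 0.953 TPM, in spleen at 8.17 ± 2.38 and in blood at 0.260 ± 0.173. Tigit, an inhibitory receptor gene, reached 453 ± 36.2 TPM in lung and 318 ± 30.8 in liver and was 15.2 ± 1.83 in blood. Gzmb, the gene of the cytotoxic protease granzyme B, was 141 ± 15.5 TPM in lung against 6.10 ± 2.30 in spleen, 4.37 ± 0.21 (log2) higher (limma adjusted p = 1.2e-10). Lag3 went against this order, with 83.1 ± 1.28 TPM in lymph node, 30 ± 3.28 in spleen and 4.96 ± 1.45 in lung, and it fell by 2.41 ± 0.21 from spleen to lung (adjusted p = 1.5e-07).

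Genes of tissue Treg cells linked to BATF and IRF4 were followed as a further list. Of 12, 11 were higher and 1 lower in lung than in spleen (median 2.17 against -0.08), and 8 were higher and 2 lower in liver (1.89 against -0.06). Between lung and blood 11 were higher in lung and none was lower, with a median of 3.50 against -0.12. On the T cell scale 9 were higher and 2 lower in lung (2.83). Of all genes tested, 17.3% were higher and 26.4% lower in lung than in blood, and 7.28% and 52.5% on the T cell scale. Areg, which encodes the repair factor amphiregulin, averaged 157 ± 17.9 TPM in lung, 91.6 ± 9.78 in liver and 12.3 ± 3.32 in bone marrow against 6.74 ± 1.12 in spleen and 0.473 ± 0.0874 in blood. Il1rl1, the gene of the IL-33 receptor ST2, averaged 266 ± 20.6 TPM in lung, 156 ± 22.0 in liver, 114 ± 2.19 in bone marrow and 12.5 to 25.5 TPM in the other 3 organs. Ccr8, a chemokine receptor gene, was highest in liver at 91.3 ± 15.4 TPM and was 0.507 ± 0.297 in blood. Tnfrsf9, which encodes the costimulatory receptor 4-1BB, was 423 ± 16.5 TPM in lung but lower in liver (62.1 ± 16.5) than in spleen (114 ± 8.31), by 0.90 ± 0.16 (log2; limma adjusted p = 0.00052).

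Rora encodes the nuclear receptor RORα, known from tissue Treg cells, innate lymphoid cells of type 2 and Th17 cells, and lies on chr9:68653786-69388246 (plus strand). It measured 165, 152 and 138 TPM in lung, 128, 117 and 139 in liver, 37.1, 40 and 37.3 in bone marrow. It was at 15.8, 16.6 and 15.1 in lymph node, 11.3, 14.2 and 12.5 in spleen, and 10, 7.02 and 7.73 in blood. Every lung and liver library lay above every bone marrow library, and every bone marrow library lay above those of the lymph node, spleen and blood. Lung was 12-fold above spleen (log2 difference 3.49 ± 0.12, limma adjusted p = 3.7e-12) and liver 10.1-fold (3.25 ± 0.12, adjusted p = 1.6e-11). Bone marrow took the middle place, 1.53 ± 0.12 above spleen (adjusted p = 1.3e-07) and 1.72 ± 0.12 below liver (adjusted p = 2.9e-08). Lung and liver overlapped and did not differ beyond their spread (0.25 ± 0.12, limma adjusted p = 0.14). Lung was higher by 0.57 on the T cell scale, however, and called. The lead of lymph node over spleen did not pass the test (adjusted p = 0.11). Spleen and lymph node exceeded blood on the TPM scale, by 0.57 ± 0.12 and 0.88 ± 0.12 (adjusted p = 0.0018 and 3.0e-05), but on the T cell scale both differences turned, to -0.24 and -0.19, and were not called. The liver and lung leads over spleen were 3.12 and 3.69 on the T cell scale. Markers of type 2 innate lymphoid cells, mast cells and basophils (8 genes) summed to 62.8 to 128 TPM in lung, 32.9 to 37.7 in liver and 75.4 to 84.5 in bone marrow against 1.62 to 36.6 TPM elsewhere. In lung and liver that sum was mostly Calca (93.1 ± 31 and 31.3 ± 3.3 TPM), while Il5 was at 1.2 ± 1.1 and 1.54 ± 1.3 TPM and Il13 was listed at 0 in all 3 lung libraries. The part of such cells in the Rora level was not tested.

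Id2 encodes an inhibitor that lacks a DNA-binding region and captures E proteins such as E2A, and lies on chr12:25093799-25097140 (minus strand). It was the most abundant member in liver, lung, blood and bone marrow by TPM, which is per length. It measured 336, 341 and 292 TPM in lung, 212, 206 and 222 in liver, 112, 110 and 107 in bone marrow. It was at 93.4, 95.1 and 93.1 in blood, 60.6, 51.3 and 48.6 in spleen, and 39.8, 45.1 and 38.6 in lymph node. No 2 organs overlapped. Lung lay 2.94 ± 0.09 (log2; limma adjusted p = 3.2e-13) above lymph node, a 7.85-fold ratio, and 0.59 ± 0.09 above liver (adjusted p = 5.7e-05), and liver 1.98 ± 0.09 above spleen (adjusted p = 6.8e-11). The lead of bone marrow over blood on the TPM scale (0.22 ± 0.09) did not pass the test (limma adjusted p = 0.061). On the T cell scale blood was higher by 0.31 and called. Liver exceeded blood by 1.17 ± 0.09 (adjusted p = 1.6e-08), but by 0.19 on the T cell scale, where the difference was not called. Markers of natural killer and CD8 T cells, in the first of which Id2 is known to be needed, summed to 544 to 596 TPM in blood against 20.2 to 93.3 TPM in the other organs, and their part in the blood level of Id2 was not tested.

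Id3, the relative of Id2 that is known from resting lymphocytes, was highest in lymph node and spleen and lowest in lung, where Id2 ran the other way. Like Id2, however, it was higher in liver than in blood and bone marrow. It averaged 80.7 ± 1.7 TPM in lymph node, 66.4 ± 1.47 in spleen, 34.3 ± 5.09 in liver, 26.8 ± 2.19 in blood, 25.6 ± 2.21 in bone marrow and 17.8 ± 5.61 in lung. Id3 fell by 1.88 ± 0.16 (log2) from spleen to lung (limma adjusted p = 1.2e-07) and by 0.94 ± 0.16 from spleen to liver (adjusted p = 0.00032). The ratio of Id2 to Id3 was 0.510 ± 0.0387 (mean ± SD, n = 3) in lymph node, 0.806 ± 0.0985 in spleen, 3.51 ± 0.288 in blood, 4.31 ± 0.406 in bone marrow, 6.30 ± 0.997 in liver and 19.5 ± 6.52 in lung. Every library of spleen and lymph node held more Id3 than Id2, and every library of the other 4 organs held more Id2 than Id3. Tcf3, which encodes E2A, was lower in lung than in spleen (38.8 ± 3.08 against 65.3 ± 4.61 TPM, -0.74 ± 0.09, adjusted p = 6.8e-06). Tcf12, which encodes the E protein HEB, was higher in lung (48.7 ± 1.16 against 38.2 ± 1.78 TPM, 0.34 ± 0.09, adjusted p = 0.0068). Id1 and Tcf4 were highest in blood, at 18.8 ± 0.741 and 24.1 ± 2.21 TPM. Of the 7 genes of this helix-loop-helix list that were tested, 4 were higher and 2 lower in lung than in spleen (median 0.34 against -0.08 for all genes) and 2 were higher and 3 lower in liver (-0.53 against -0.06).

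Ahr encodes a ligand-activated receptor for dietary and microbial compounds and pollutants, and lies on chr12:35497974-35535038 (minus strand). It measured 26.6, 20.6 and 25.3 TPM in liver, 21.6, 16.8 and 17.6 in lung, 14.6, 13.9 and 15.7 in lymph node. It was at 11, 11.7 and 10.6 in bone marrow, 11, 8.51 and 9.35 in blood, and 4.9, 6.36 and 6.23 in spleen. Liver and lung overlapped at the top, and the spleen libraries lay below all others. Liver exceeded spleen 4.14-fold (log2 difference 1.88 ± 0.15, limma adjusted p = 1.3e-07), lung 3.2-fold (1.53 ± 0.15, adjusted p = 6.0e-07) and lymph node 2.52-fold (1.21 ± 0.15, adjusted p = 4.6e-05). The steps between neighbours from liver down to blood did not pass the test (adjusted p = 0.079, 0.0997, 0.091 and 0.37), and blood was 0.64 ± 0.15 above spleen (adjusted p = 0.0030). Lung over lymph node went from 0.32 to 0.77 on the T cell scale and was called (adjusted p = 0.00076), while there the liver and lung leads over blood, 1.24 and 0.89, fell to 0.31 and 0.27 and lost their calls. The lymph node lead over blood, 0.57 ± 0.15 (adjusted p = 0.0064), turned to -0.50 on the T cell scale and was called.

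Target genes of Ahr gave few values. Of 8 listed targets, 4 passed the expression minimum, while Cyp1a1, Cyp1b1, Ahrr and Aldh3a1 had organ means of at most 0.667 TPM. Tiparp, a target gene that encodes a repressor of the receptor, averaged 39.3 ± 21.6 TPM in lung, 35.5 ± 23.5 in liver, 22.2 ± 3.36 in blood, 13.1 ± 1.02 in bone marrow, 7.40 ± 2.65 in spleen and 5.84 ± 0.367 in lymph node. It was 1.99 ± 0.38 (log2) higher in liver than in spleen (limma adjusted p = 0.00088). Gpr15, a gut homing receptor gene, was 49.6 ± 1.61 TPM in liver, 29.3 ± 1.2 in bone marrow, 19.3 ± 1.12 in lung, 14.6 ± 2.30 in lymph node, 11.8 ± 0.800 in spleen and 8.47 ± 1.03 in blood. It lay 1.98 ± 0.12 higher in liver than in spleen (adjusted p = 7.2e-09). Arnt, the partner of the receptor on DNA, was 83.4 ± 12.5 TPM in lung and 34.3 to 43.0 TPM in the other 5 organs.

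Tbx21 encodes T-bet, the T-box factor of Th1 responses, and lies on chr11:97098071-97115331 (minus strand). It measured 21.8, 27.8 and 20.6 TPM in liver, 11.5, 11.2 and 13.9 in bone marrow, 10.4, 10.1 and 11.4 in blood. It was at 6.24, 6.45 and 8.13 in spleen, 6.71, 2.33 and 7.8 in lung, and 2.92, 2.22 and 3.75 in lymph node. All 3 liver libraries lay above the other 15, and lung replicate 2 stood at 2.33 TPM, within the range of the lymph node, against 6.71 and 7.8 in the other two. Liver exceeded lymph node 7.89-fold (log2 difference 2.63 ± 0.29, limma adjusted p = 4.9e-06), lung 4.17-fold (1.99 ± 0.29, adjusted p = 5.7e-05) and spleen 3.37-fold (1.62 ± 0.29, adjusted p = 0.00048). Below the liver no neighbours in the order passed the test, although the blood and spleen libraries did not overlap. The limma adjusted p was 0.71 for bone marrow and blood and 0.15 for blood and spleen. It was 0.33 for spleen and lung and 0.086 for lung and lymph node. Blood over spleen was 1.36 (adjusted p = 0.00072) and lung over lymph node 0.99 (adjusted p = 0.012) on the T cell scale, both called. The lead of liver over bone marrow, 0.88 ± 0.29 (adjusted p = 0.026), was lost on the T cell scale (0.45) and without liver replicate 2 or bone marrow replicate 1 or 2. The lead of blood over lung, 0.93 ± 0.29 (adjusted p = 0.015), fell to 0.49 and lost its call without lung replicate 2, and without that library lung exceeded lymph node by 1.07 and was called, against 0.64 with it. Liver exceeded blood by 1.06 ± 0.29 on the TPM scale (adjusted p = 0.0073), and by 0.13 on the T cell scale, where it was not called. In fits of 2 organs alone, the leads of liver (1.99), bone marrow (1.11) and blood (0.93) over lung lost their calls.

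Genes known as targets or companions of T-bet split between the organs. Of 12, 7 were higher and 1 lower in liver than in spleen (median 0.56 against -0.06 for all genes), and 9 were higher and none lower in lung than in spleen (0.99 against -0.08). Ifng, the gene of interferon-γ, was, like Tbx21, highest in liver and lowest in lymph node, with 77.2 ± 7.94 TPM in liver and 25.2 ± 1.96 in bone marrow, then 9.43 ± 5.30 in lung, 7.71 ± 2.42 in spleen, 6.08 ± 2.37 in blood and 2.58 ± 0.609 in lymph node. It was 3.2 ± 0.31 (log2) higher in liver than in spleen (limma adjusted p = 1.4e-06). Ccl5, a chemokine gene, averaged 401 ± 54.8 TPM in liver, 352 ± 5.78 in blood and 310 ± 14.7 in bone marrow, against 179 ± 20.9 in lung, 164 ± 6.10 in spleen and 36.5 ± 3.55 in lymph node. Il18rap, which encodes a chain of the IL-18 receptor, was highest in lung at 77.8 ± 10.9 TPM and lowest in lymph node at 10.9 ± 0.905. Hlx was 17.4 ± 2.90 TPM in blood and 15.5 ± 0.458 in bone marrow and at most 1.83 TPM elsewhere. It thus did not follow Tbx21 into the liver. Blood and bone marrow also had the highest myeloid marker sums, at 26842 to 27634 and 38273 to 38534 TPM. Eomes, the related T-box gene of natural killer and CD8 T cells, was 11.3 ± 1.15 TPM in blood and 0.210 ± 0.364 in liver, and the natural killer gene Ncr1 was 49.4 ± 5.9 TPM in blood and 0.557 ± 0.96 in liver. The part of natural killer and CD8 T cells in the Tbx21 level was not tested, nor the part of other cells in the levels of Hlx and Ccl5.

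Blood was compared with each organ on both scales, since its T cell factor was the lowest of the 6 organs. Against lymph node, 9 of 9 members were called, 6 lower and 3 higher in blood, where 37.4% of all genes were called (21% lower and 16.4% higher in blood). Against liver, 9 of 9 were called, 8 lower and 1 higher in blood, where 39.4% of all genes were called (16.1% lower and 23.3% higher in blood). Against lung, 8 were called, 7 lower and 1 higher in blood, where 43.7% of all genes were called (17.3% lower and 26.4% higher in blood). Spleen and blood differed in 7, 3 lower and 4 higher in blood, where 35.4% of all genes were called (15.3% lower and 20.1% higher in blood). Bone marrow and blood differed in 5, 4 lower and 1 higher in blood, where 31.8% were called (18.8% lower and 13% higher in blood). On the T cell scale the split of lower to higher in blood became 2 to 5 against lymph node, where 1.84% of all genes were lower and 58% higher in blood. It was 4 to 2 against liver (4.41% of all genes lower and 62.9% higher), 5 to 2 against lung (7.28% and 52.5%), 2 to 6 against spleen (2.88% and 53.8%) and 4 to 3 against bone marrow (7.64% and 32.9%). Genes as a whole were thus mostly higher in blood on that scale. Maf and Batf were lower in blood than in each of the other 5 organs on both scales and called in each, with T cell scaled differences (log2, organ minus blood) from 1.27 to 1.74 for Maf and from 0.24 to 1.63 for Batf. Bcl6 was higher in blood than in spleen, lymph node, bone marrow and liver on both scales. Prdm1 was called lower in blood than in bone marrow, liver and lung on both scales (T cell scaled 0.90, 0.76 and 1.38).

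**Figure D4:**
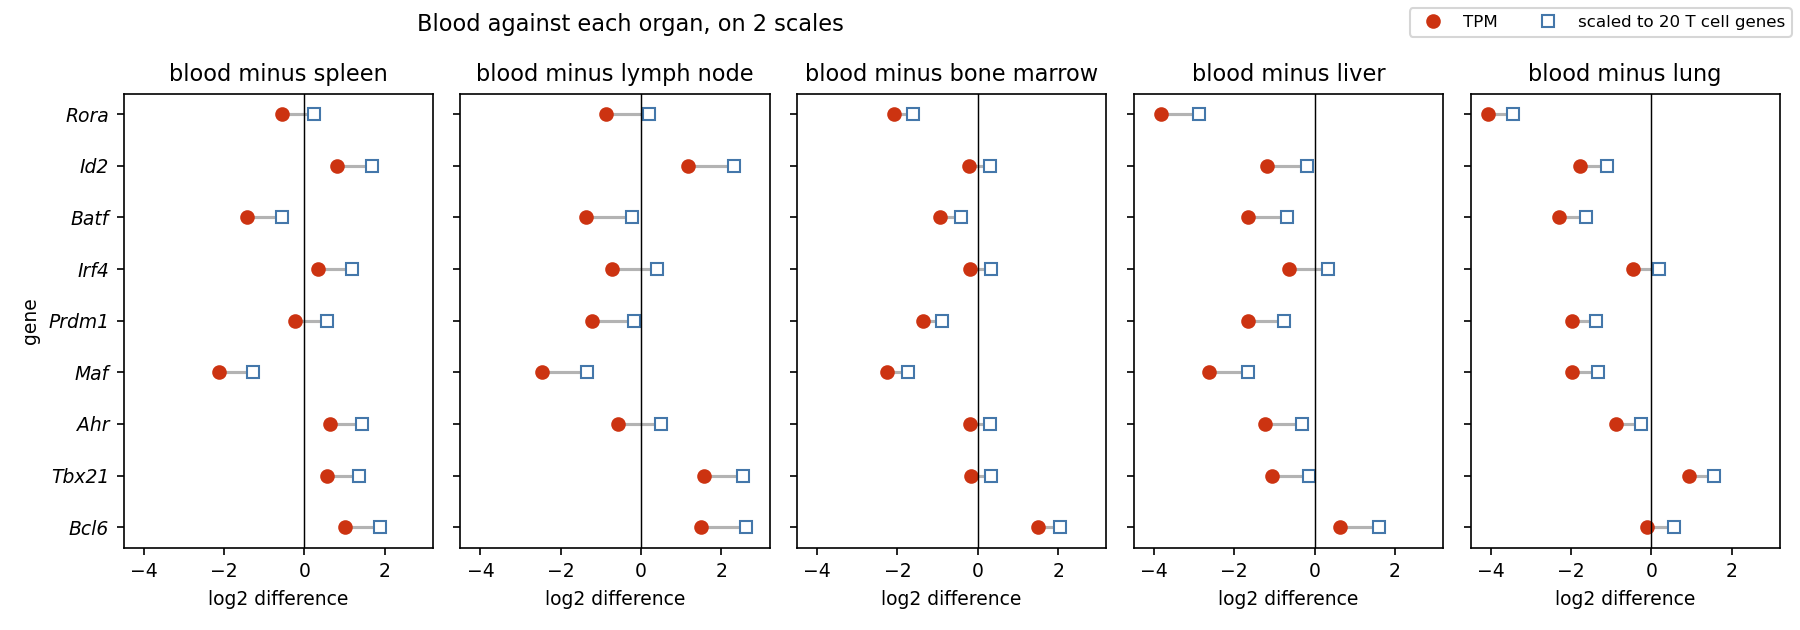
Log2 difference of each factor between blood and each of the other 5 organs (panels, blood minus organ), on TPM (filled circles) and after scaling to 20 T cell genes (open squares). Scaling moves each point to the right, and Maf and Batf stay left of 0 in all 5 panels whereas Irf4 crosses 0 against lymph node, bone marrow, liver and lung.

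Liver and lung, the organs with most of the members, differed in 5 of 9, where 34.9% of all genes were called (17.6% higher in liver and 17.3% higher in lung). Maf and Tbx21 were higher in liver, by 0.65 ± 0.06 and 1.99 ± 0.29 (log2, limma adjusted p = 6.1e-07 and 5.7e-05). The Tbx21 call was lost in a fit of those 2 organs alone (limma adjusted p = 0.055). Batf, Id2 and Bcl6 were higher in lung, by 0.64 ± 0.09, 0.59 ± 0.09 and 0.73 ± 0.10 (adjusted p = 4.1e-05, 5.7e-05 and 2.6e-05). Prdm1, Irf4, Rora and Ahr were not called. On the T cell scale the same 5 kept their direction, and Prdm1 and Rora were also called higher in lung, by 0.62 and 0.57, where 10% of all genes were higher in liver and 28.5% in lung. Lung epithelial markers summed to 222 to 298 TPM in lung and to at most 14.2 TPM in the other organs, hepatocyte markers to 5.10 to 17.9 TPM in liver and at most 3.62 elsewhere, and erythroid markers to 10932 to 11969 TPM in liver against 1426 to 1540 in lung. Their part in these differences was not tested.

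Members were also compared by the shape of their profiles, as the root mean square (RMS) difference between centred profiles of mean log2(TPM + 1) over the 6 organs. Among the members, Irf4 and Ahr were closest (0.32), then Prdm1 and Ahr (0.40) and Prdm1 and Batf (0.50), and Rora and Tbx21 were farthest apart (1.54). Among 9395 other genes with at least 10 TPM in at least 1 organ, Arl5a and Pdpr were closest to Irf4 (0.11 each), and Traf1, which encodes a signalling adaptor of TNF receptors, was closest to Batf (0.12), followed by Camk4 (0.16). Ptp4a1 and Klf11 were closest to Id2 (0.17 and 0.28), Rab4a and Lmnb1 to Prdm1 (0.18 and 0.22), and Tnrc6b to Ahr (0.18). Zfp874b and Crebrf were closest to Bcl6 (0.19 and 0.24). Cish, a feedback inhibitor gene of cytokine signals, was closest to Maf (0.22), with 17.2 TPM in blood and 62.1 to 107 TPM in the other 5 organs, followed by Pvrig (0.30). The nearest genes lay farther from Rora and Tbx21 than from the other 7 members: Bhlhe40, a transcription factor gene, and Tnfaip3, an inhibitor gene of NF-κB signalling, lay 0.38 and 0.40 from Rora, and Btg2 and Cd69 lay 0.42 and 0.43 from Tbx21. Bhlhe40 averaged 404 TPM in lung and 368 in liver against 26.9 to 68.4 TPM in the other organs, and Tnfaip3 averaged 1088 and 961 against 63.9 to 345 TPM. The measure rests on 6 organ means in shared libraries and carries no test.

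Other lineage factors of T cells gave a background for the members. Of 16, 12 were higher and 1 lower in lung than in spleen (median 0.86 against -0.08 for all genes). In liver 7 were higher and 4 lower than in spleen (0.11 against -0.06, and 7 and 5 on the T cell scale). On the T cell scale 11.1% of all genes were higher and 20.9% lower in liver. Nr4a1, an orphan nuclear receptor gene induced by antigen receptor signals, averaged 3290 ± 135 TPM in liver against 215 to 786 TPM in the other 5 organs. Pparg, the nuclear receptor gene of fat tissue Treg cells, was 11.7 ± 0.907 TPM in lung, 9.12 ± 0.992 in liver, 7.10 ± 2.32 in blood and at most 2.89 TPM elsewhere. Zeb2, a repressor gene that T-bet is known to induce in effector T cells and that is also high in myeloid cells, was at most 14.5 TPM in 5 organs and 62.2 ± 3.91 TPM in blood, the organ with the highest natural killer markers, and the part of other cells in its level was not tested.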

How the data were processed

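Polyadenylated RNA of 18 libraries of sorted mouse Treg cells was sequenced (6 organs, 3 libraries each). TPM values were deposited by the authors, in a separate table for each library. STAR, RSEM and the mm10 build are named in the submitters' processing notes; versions, annotation and strand setting are not given in the sources used here. Symbols came from GENCODE M21 (GRCm38, the same build as mm10), which named 55141 of 55487 IDs. TPM keeps no depth, so no counting intervals are given.

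Values were fitted as log2(TPM + 1) with limma 3.58.1 (R 4.3.3) in 1 model over the 18 libraries with a mean per organ, no covariate, and moderated variances (trend and robust), for the 16694 genes that averaged 1 TPM or more in some organ. An F test over the organs and 15 pairwise contrasts were adjusted by Benjamini-Hochberg over all genes of a contrast and called at an adjusted p under 0.05. The script was tested on simulated data. Alternatives covered the pseudocount, the filter, 3 scalings, the variance model, library weights, fits of 2 organs, each library left out, and the replicate number as a block.

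All 9 members are named. From each related list, up to 4 genes with at least 10 TPM in an organ and the largest range over organs are named, plus family partners, and 2 genes per member by profile likeness; a pseudogene, whose reads may belong to its parent, is left out of the text. Some other genes that this rule names are not reported here. Members and lists were chosen with earlier results of these data known. Tables were handled with Python 3.11.15 and pandas 2.3.3. Proteins were not analysed here, nor the promoters of Maf and Ahr.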

Additional observations from a re-analysis of the deposited data

How the results depend on the processing

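All 9 members differed among the 6 organs under every alternative run, leaving out each of the 18 libraries, the 3 blood libraries, or blood and bone marrow together included (leaving out whole organs was chosen after seeing the data). Of the 135 member comparisons, none changed direction except under T cell scaling. There, with values oriented as the organ named first minus the second, Maf was -0.044 for spleen minus lung, -0.39 for lymph node minus bone marrow and -0.094 for liver minus bone marrow. Prdm1 was -0.56 for spleen minus blood, Batf -0.19 for lymph node minus bone marrow, Id2 -0.31 for bone marrow minus blood and Ahr -0.50 for lymph node minus blood. Rora was -0.24 for spleen minus blood and -0.19 for lymph node minus blood. Bcl6 was -0.57 for lymph node minus bone marrow and -0.57 for lung minus blood. Irf4 was -0.074, -0.39 and -0.19 for lymph node minus bone marrow, blood and lung, -0.32, -0.32 and -0.20 for bone marrow, liver and lung minus blood, and -0.0065 for liver minus bone marrow. The count for bone marrow against liver moved from 8 to 5, and other counts moved too. For blood against liver, 9 on the TPM scale, 2 were higher and 4 lower in blood. For lymph node against blood, also 9, 2 were higher and 5 lower in lymph node. The count for lymph node against liver rose from 6 to 8. For liver against lung, 5 on the TPM scale, 2 were higher in liver and 5 in lung. T cell scaling divides each library by its factor, which moves the differences of all expressed genes in a pair of organs the same way. What makes the factors differ between organs was not tested.

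With 1 library left out, the count of called members was 6 to 7 for spleen against lymph node, 7 to 8 for spleen against bone marrow, blood and lung, 8 to 9 for spleen against liver, 5 to 6 for lymph node against bone marrow, 9 to 9 for lymph node against blood, 5 to 7 for lymph node against liver, 6 to 8 for lymph node against lung, 5 to 6 for bone marrow against blood and for liver against lung, 7 to 8 for bone marrow against liver and blood against lung, 8 to 9 for bone marrow against lung, and 9 to 9 for blood against liver.

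Replicate numbers showed no clear pairing of the libraries. Over 45 same-numbered pairs the correlation of deviations from the organ means ran from -0.0345 to 0.0302. Its median was 0.0068, against -0.0019 over 90 pairs of other numbers, and 9 of 18 libraries correlated best with their own number. Such a check cannot exclude that libraries of the same number shared animals or a sort. With the number as a replicate block, 9 members differed among the organs, 133 of 135 comparisons kept their call, 1 was gained (Prdm1, liver over lymph node) and 1 was lost (Maf, spleen over lung). With 3 libraries per organ, low genes such as Tbx21 and Prdm1 carried the largest standard errors, and TPM gives no counting error.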
